A study of Mus musculus with 6 samples.

Results

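The serpins are a superfamily of proteins named for the serine protease inhibitors among them, and in the mouse each gene symbol carries a clade letter from a to i. Every row of the gene expression table whose symbol begins with Serpin, a clade letter and a number was taken, which gave 43 of 16978 genes. They comprised 18 genes of clade A, 15 of clade B, 3 of clade E, 2 of clade F and 1 each of clades C, D, G, H and I. All 43 had a count in at least 1 library, and 28 of them reached a total of 15 counts over the 6 libraries, the minimum for a test, as did 13866 genes in all. Of the tested serpins, 27 are described.

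The libraries came from bone marrow-derived macrophages (BMDM) of wild type C57BL/6 mice, grown from femoral marrow with 25 ng/ml macrophage colony-stimulating factor. On day 7 the cells received 200 ng/ml IL17B for 6 hours (the IL17B group, 3 libraries) or no cytokine, which the methods of the study give as PBS (the control group, 3 libraries). IL17B is a cytokine of the IL17 family, and the comparison asked what it changes in the transcripts of macrophages. No source used here says that the 3 libraries of a group came from separate cultures or animals, so that a p-value here measures the spread between libraries alone, and that spread may be technical.

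An inhibitory serpin offers an exposed loop, the reactive centre loop, as bait to a protease. When the protease cuts it, the loop inserts into the body of the serpin and the enzyme is trapped and distorted. Secreted serpins of clades A, C, D, F and G, most of them made by the liver, control elastase, coagulation, fibrinolysis and complement in plasma. Most clade B serpins instead stay in the cytosol, where many protect cells from their own proteases. A few members, such as the collagen chaperone encoded by Serpinh1, inhibit no protease.

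The libraries held between 20271411 and 20653322 estimated counts, and no pair of libraries agreed within sampling noise. All 20 macrophage identity genes of a marker list were detected in each library, at a summed level of 49874 to 52719 CPM, the count relative to the TMM-normalized library size. IL17B replicates 2 and 3 stood apart from the other 4 libraries by transcripts of hepatocyte genes that are not serpins. A list of 22 such genes (23 with Trf, which had at least 8394 counts in every library) summed to 2.28, 2.96 and 3.03 CPM in control replicates 1, 2 and 3 and to 2.11, 250 and 89.8 CPM in IL17B replicates 1, 2 and 3. Alb, the gene of serum albumin, had 0 counts in each control library and in IL17B replicate 1, 2334 counts in IL17B replicate 2 and 691 in IL17B replicate 3. All 22 genes were detected in IL17B replicates 2 and 3, against 8 in each control library and 5 in IL17B replicate 1. In these bulk samples, fewer cells of a type and less RNA per cell cannot be told apart.

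The serpin message of these macrophages was mostly that of 1 clade B gene. Measured in TPM, which correct for transcript length and allow genes to be compared, all serpins together made up 899, 995 and 897 TPM in control replicates 1, 2 and 3 and 939, 1037 and 985 TPM in IL17B replicates 1, 2 and 3. Serpinb6a alone took 85.4%, 85.3% and 86.6% of that sum in the controls and 86.9%, 79.6% and 82.9% in the IL17B libraries. Clade B as a whole took 94.9% to 97.0% in the controls, 97.5% in IL17B replicate 1, and 87.7% and 93.1% in IL17B replicates 2 and 3. Clade A had 0.0779% to 0.0948% of the serpin TPM in the controls and 0.0703% in IL17B replicate 1, but 9.15% and 3.71% in IL17B replicates 2 and 3. Of the 43 genes, 5 had a mean level of at least 5 TPM, 15 lay from 1 to under 5 TPM and 23 lay below 1 TPM.

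**Figure D1:**
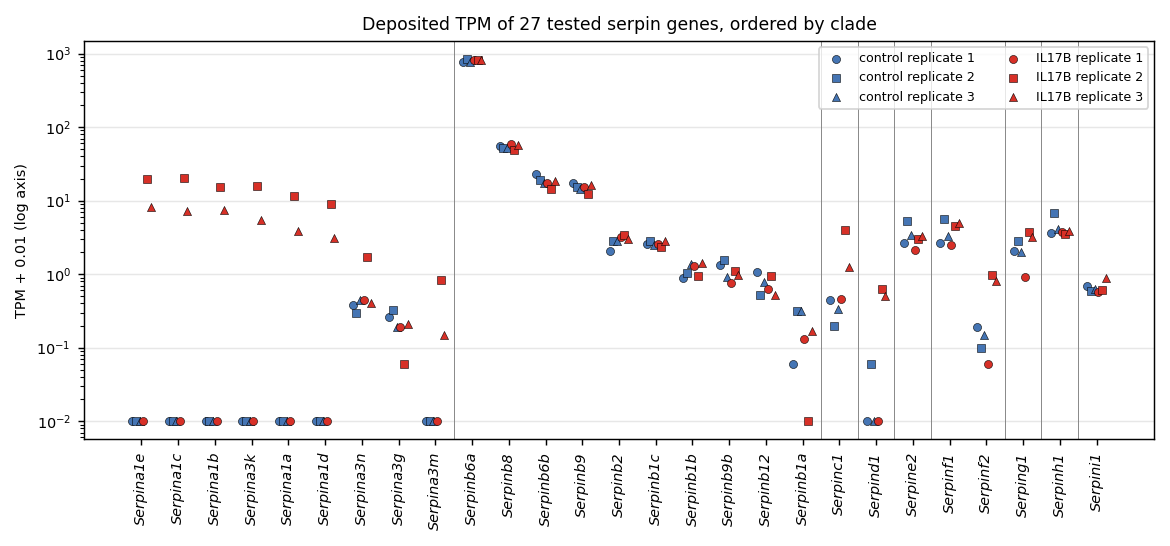
Deposited TPM of 27 tested serpin genes in each library, plotted as TPM + 0.01 on a log axis, with genes grouped by clade and ordered by mean TPM within a clade. Serpinb6a lies between 767 and 849 TPM in all 6 libraries, while Serpina1a to Serpina1e, Serpina3k and Serpina3m lie at 0 in 4 libraries and above 0 only in IL17B replicates 2 and 3.

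The abundant clade B serpins, a clade of mostly intracellular proteins, kept close levels in both groups. Serpinb6a, whose protein inhibits cathepsin G and trypsin-like proteases, had 11079, 11914 and 10999 counts in the controls and 11304, 11946 and 11491 with IL17B. The groups overlapped, at 552 ± 22.9 CPM in control and 566 ± 15.5 CPM in IL17B-treated BMDM (SD, n = 3 each). By the edgeR quasi-likelihood test with Benjamini-Hochberg adjustment, the adjusted p was 0.989 at a log2 fold change of 0.04 ± 0.05 (SE). Serpinb8, an inhibitor of the proprotein convertase furin, had 1539, 1364 and 1424 counts in the controls and 1543, 1375 and 1544 with IL17B, a log2 fold change of 0.05 (SE 0.06). Serpinb9, which protects cells from granzyme B, had 444, 391 and 353 counts against 382, 308 and 408, a log2 fold change of -0.11 (SE 0.11). The counts of all 3 genes overlapped between the groups.

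Serpinb6b, a paralog of Serpinb6a, had 440, 352 and 317 counts in the controls and 306, 270 and 339 with IL17B. IL17B replicate 3 lay inside the control range and the other 2 IL17B libraries lay below it. The means were 18.0 ± 3.04 and 14.9 ± 1.67 CPM (SD, n = 3 each), and the log2 fold change was -0.27 (SE 0.12). By edgeR its unadjusted p of 0.0545 was the smallest of the clade, and the adjusted p was 0.941. Serpinb2, the gene of plasminogen activator inhibitor 2, which is known from activated macrophages, had 41, 54 and 55 counts in the controls and 61, 67 and 57 with IL17B. Each IL17B library lay above each control library, and Serpinb2 was the only one of the 27 serpins described with this order. Across all tested genes, 5.16% showed it. The means were 2.44 ± 0.385 and 3.01 ± 0.248 CPM, and the log2 fold change was 0.31 (SE 0.17) with an adjusted p of 0.973 by edgeR. The gene was singled out after its values were seen.

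The rest of clade B was scarce. Serpinb1c had 42.5 to 48.6 estimated counts in each library, Serpinb1b had 15 to 23.2 and Serpinb9b had 14 to 29.2. Serpinb1a, the mouse counterpart of the human inhibitor of neutrophil elastase, had at most 5 counts in a library and a fitted log2 fold change of -1.37 (SE 0.91). Serpinb12 had 17, 8 and 13 counts in the controls and 10, 15 and 8 with IL17B. The 10 tested clade B genes had log2 fold changes from -1.37 to 0.31 with a median of -0.07. The summed level of the clade was 663, 688 and 649 CPM in the controls and 671, 687 and 679 CPM with IL17B.

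The most abundant clade B serpins had few bases in common after the hinge of the reactive centre loop. The coding stretch of 24 codons that begins at the hinge is shown for the 4 clade B genes with the highest TPM, because the bases after the hinge set which protease is bound. It comes from the principal GENCODE M21 transcript of each gene (GRCm38), written 5′ to 3′. Of the first 30 bases, 21 were alike in all 4 genes, against 4 of the 42 bases after them. The hinge was located by a search for its conserved codons, which found it in 23 of the 43 serpins. The likeness of the first bases was therefore partly fixed by the search. Serpinb6a, Serpinb6b and Serpinb9 lie on chromosome 13 and Serpinb8 lies on chromosome 1.
Serpinb6a: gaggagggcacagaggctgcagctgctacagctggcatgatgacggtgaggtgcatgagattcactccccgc
Serpinb8: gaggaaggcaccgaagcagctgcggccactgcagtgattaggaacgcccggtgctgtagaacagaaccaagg
Serpinb6b: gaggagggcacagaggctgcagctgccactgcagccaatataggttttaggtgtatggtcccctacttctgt
Serpinb9: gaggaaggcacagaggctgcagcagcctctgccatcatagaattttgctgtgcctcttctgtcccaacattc

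The serpins that differed most in level between libraries were those of liver and plasma. Serpina1a to Serpina1e encode the mouse forms of alpha-1-antitrypsin, the main elastase inhibitor of plasma. Serpina1a had 0, 0 and 0 counts in the controls and 0, 201 and 65 with IL17B. Serpina1b had 0 counts in the same 4 libraries and 221 and 104 in IL17B replicates 2 and 3, and Serpina1c had 286 and 101 there. Serpina1d had 129 and 44 counts and Serpina1e had 266 and 109, again with 0 in the other 4 libraries. The 5 genes were thus absent from the counts of IL17B replicate 1 as from those of the 3 controls. Serpina3k, a clade A gene of the liver that encodes a kallikrein-binding protein, followed the same order with 0, 0 and 0 counts in the controls and 0, 264 and 89 with IL17B. Serpina3m was seen in IL17B replicate 2 with 13 counts and in IL17B replicate 3 with 2, and was at 0 elsewhere.

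**Figure D2:**
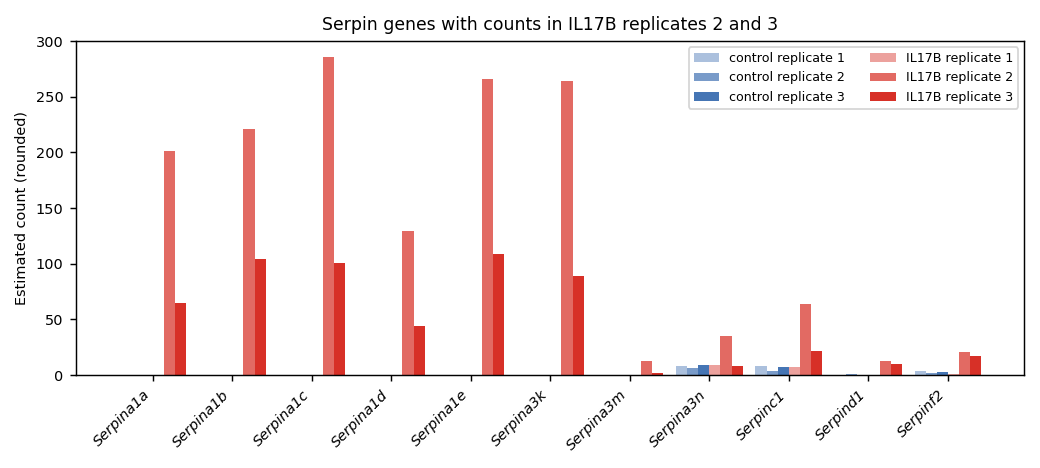
Estimated counts, rounded to whole numbers, of 11 serpin genes in each of the 6 libraries (blue bars control, red bars IL17B, darker with replicate number). Counts in IL17B replicate 2 exceed those in IL17B replicate 3 for every gene, and IL17B replicate 1 is at 0 to 9 counts like the controls.

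With no count in any control library, a fold can be given only against a floor of 3 counts over the 3 control libraries, or 0.0487 CPM. Against it Serpina1a was at least 202-fold higher in IL17B replicate 2 and at least 65.1-fold higher in IL17B replicate 3. The lower bounds for the other 4 Serpina1 genes ran from 129-fold (Serpina1d) to 287-fold (Serpina1c) in IL17B replicate 2 and from 44.0-fold (Serpina1d) to 109-fold (Serpina1e) in IL17B replicate 3. For Serpina3k they were 265-fold and 89.1-fold. In IL17B replicate 1 none of these genes had a count. Per transcript length, Serpina1c reached 20.1 TPM and Serpina1e 19.4 TPM in IL17B replicate 2, above the levels of Serpinb6b (14.35 TPM) and Serpinb9 (12.1 TPM) in that library. None of these genes passed the test: by edgeR, the 6 genes with over 100 counts had unadjusted p from 0.00472 to 0.00604 and an adjusted p of 0.862.

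Other plasma serpins followed these libraries at lower counts. Serpinc1, the gene of antithrombin, had 8, 4 and 7 counts in the controls and 7, 64 and 22 with IL17B. IL17B replicate 1 lay inside the control range and the other 2 libraries lay above it. Its means were 0.309 ± 0.102 and 1.51 ± 1.44 CPM (SD, n = 3 each). The log2 fold change was 2.27 (SE 0.72), or 1.18 without IL17B replicate 2, and edgeR gave an unadjusted p of 0.0106 and an adjusted p of 0.904. Serpind1, the gene of heparin cofactor II, had 1 count over the control libraries and 0, 13 and 10 with IL17B. The counts pooled by group gave a ratio of 23.1, with an exact 95% interval of 3.75 to 951 that covers counting error only. The interval leaves out the spread between the IL17B libraries and so is no test of a difference. For Serpind1 edgeR gave an unadjusted p of 0.0137 and an adjusted p of 0.909. Serpinf2, the gene of the plasmin inhibitor alpha-2-antiplasmin, had 4, 2 and 3 counts against 1, 21 and 17. The log2 fold change was 2.07 (SE 0.83), and edgeR gave an unadjusted p of 0.0312 and an adjusted p of 0.941.

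The 9 serpins that the study lists among its upregulated genes (Serpina1a to Serpina1e, Serpina3k, Serpinc1, Serpind1 and Serpinf2) were chosen on these samples, so their counts are no independent evidence of direction. Together they summed to 0.583, 0.340 and 0.489 CPM in the controls and to 0.392, 71.6 and 27.3 CPM with IL17B. The level in IL17B replicate 1 was below that of 2 of the 3 controls. All 9, and Serpina3m, were higher with IL17B at an unadjusted p under 0.05. In each of these 10 genes IL17B replicates 2 and 3 lay above every control and IL17B replicate 1 lay within or below the control range. The hepatocyte list moved with them, with 250 and 89.8 CPM in IL17B replicates 2 and 3 as given above. By edgeR, 21 of its 22 genes were higher at an unadjusted p under 0.05 (2.96% of all tested genes). Genes such as Alb, Ahsg and Apoc3 had no control count and reached the count minimum only through IL17B replicates 2 and 3. The share of the list is therefore no support for a difference. The part of the hepatocyte list in the serpin values, and whether RNA of liver cells entered IL17B replicates 2 and 3, was not tested. The CPM ratio of IL17B replicate 2 to IL17B replicate 3 was taken only over genes with enough counts in both and few in the other libraries. It was 2.13 to 3.10 (median 2.89) over Serpina1a to Serpina1e and Serpina3k, and 1.74 to 4.37 (median 2.43) over 15 hepatocyte genes that are not serpins. Left out were Serpinc1 (64 and 22 counts), Serpina3m (13 and 2), Serpind1 (13 and 10) and Serpinf2 (21 and 17). By these counts Serpina3m differed more between these 2 libraries than either range, and Serpind1 and Serpinf2 differed less. Their counts are few and counting error was not taken into account, so a difference from either range is not shown.

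The counts of Serpina1a to Serpina1e are less certain as separate values than as a sum. Reads of 50 bases had to be divided between near-identical copies, and of all 50-base windows of the GENCODE M21 transcripts, 19.2% of those of Serpina1a and 20.7% of those of Serpina1c occurred in no other gene. The share was 52.9% for Serpina1b, 49.1% for Serpina1d and 62.1% for Serpina1e. Summed over the 5 genes, the level was 0 CPM in the 3 controls and in IL17B replicate 1, 53.9 CPM in IL17B replicate 2 and 20.6 CPM in IL17B replicate 3. Of the 43 serpins, 35 had at least 80% of such windows to themselves, Serpina3k with 86.0% and Serpinb6a with 81.8% among them, and 15 had all of them. Serpinc1 had 41.2%, and its annotated transcripts share sequence with those of Zbtb37, so its counts are also uncertain.

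**Figure D3:**
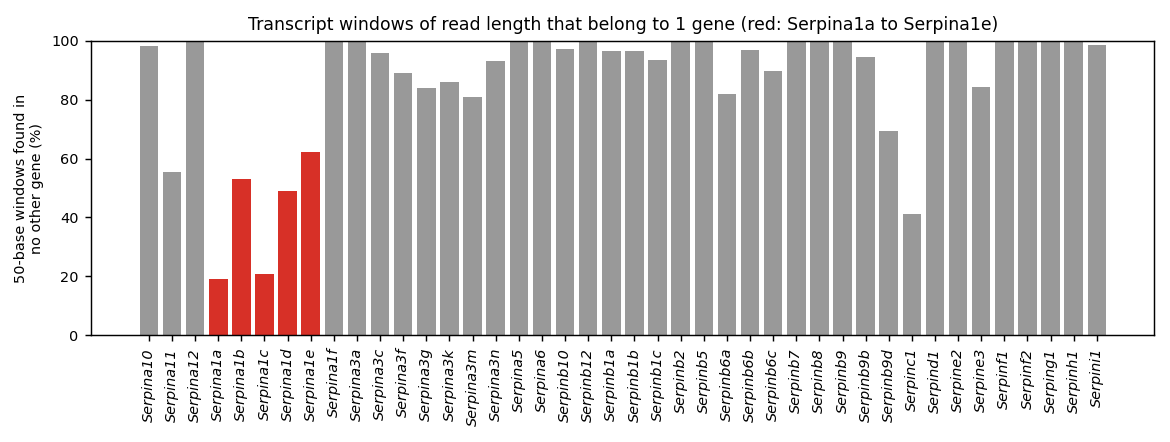
Share of 50-base transcript windows, in percent, that occur in no other gene of the annotation, for 42 serpin genes (Serpina1a to Serpina1e in red). Serpina1a and Serpina1c have the lowest shares, 19.2% and 20.7%.

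The 5 Serpina1 genes lie within the clade A cluster on chromosome 12 (GRCm38, 103616675 to 104414334), which holds all 18 genes of the clade. Their 1080 coding bases before the hinge were 96.8% to 99.4% identical over the 10 pairs of genes. The 72 bases that begin at the hinge (codons 361 to 384 of 413) were 86.1% to 94.4% identical, and 15 of their positions differed. These stretches are shown because they carry the bait that distinguishes the 5 inhibitors. Capitals mark the positions at which the 5 genes are not all alike.
Serpina1a: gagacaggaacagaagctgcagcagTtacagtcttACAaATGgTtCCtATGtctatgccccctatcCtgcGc
Serpina1b: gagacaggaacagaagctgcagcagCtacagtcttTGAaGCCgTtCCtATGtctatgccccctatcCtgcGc
Serpina1c: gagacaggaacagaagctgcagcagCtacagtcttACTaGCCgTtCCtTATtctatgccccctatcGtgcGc
Serpina1d: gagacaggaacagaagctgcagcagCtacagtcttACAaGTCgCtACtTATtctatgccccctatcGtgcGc
Serpina1e: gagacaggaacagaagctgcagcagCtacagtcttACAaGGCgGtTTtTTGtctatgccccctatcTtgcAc

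The promoters of the 5 genes were nearly alike as well. RefSeq promoters (GRCm38.p6, 250 bases before to 50 after each start) were matched for 36 of the 43 serpins. GTTAAT, 1 arm of the palindrome bound by the liver-enriched factor HNF1, was searched on both strands, with no other motif. It occurred in 7.1% of 32851 promoters, which belonged to 8.24% of 27025 genes. Of the 36 serpins, 7 had it, namely Serpina1a to Serpina1e, Serpina3c and Serpinb8. The first 5 are near-identical copies and so are not separate occurrences. A stretch of 59 bases around GTTAAT was identical in Serpina1a to Serpina1e and in no other promoter of the table (0.0152% of promoters). Of the 2 other serpins with the motif, Serpina3c had at most 1 count in a library and Serpinb8 was among the most abundant serpins of every library. A match is a description of letters and not of binding. The stretches are shown 5′ to 3′ on the minus strand of chromosome 12 because the 5 genes moved together across the libraries. The capitals mark GTTAAT, which starts 21, 26, 27, 16 and 78 bases before the start in Serpina1a, Serpina1b, Serpina1c, Serpina1d and Serpina1e.
Serpina1a: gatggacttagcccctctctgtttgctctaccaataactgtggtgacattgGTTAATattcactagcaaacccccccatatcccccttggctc
Serpina1b: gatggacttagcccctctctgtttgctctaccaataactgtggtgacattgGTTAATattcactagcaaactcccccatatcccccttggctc
Serpina1c: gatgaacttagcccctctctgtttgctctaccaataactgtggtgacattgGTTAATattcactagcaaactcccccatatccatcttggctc
Serpina1d: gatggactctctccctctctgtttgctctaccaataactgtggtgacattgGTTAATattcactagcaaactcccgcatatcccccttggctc
Serpina1e: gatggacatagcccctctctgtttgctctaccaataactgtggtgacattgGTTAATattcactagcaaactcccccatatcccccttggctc

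Members of clade A that are expressed outside the liver did not all share this order. Serpina3n, an acute-phase serpin also made by glia and other cells, had 8, 6 and 9 counts in the controls and 9, 35 and 8 with IL17B. Only IL17B replicate 2 was high, and the log2 fold change of 1.17 (SE 0.60) became 0.15 without it. Serpina3g, an inhibitor of lysosomal cathepsins in mouse leukocytes, had 5, 6 and 3 counts in the controls and 3, 1 and 4 with IL17B, with groups that overlapped. Over all 18 genes, clade A summed to 0.729, 0.776 and 0.832 CPM in the controls and to 0.637, 69.7 and 25.8 CPM with IL17B. The number of its genes with a count was 4, 5 and 6 in the controls and 3, 12 and 13 with IL17B.

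Control replicate 2 was the highest library for the serpins of connective tissue. Serpine2, the gene of the thrombin inhibitor protease nexin 1, had 55, 106 and 68 counts in the controls and 42, 61 and 67 with IL17B. Its groups overlapped, and the log2 fold change of -0.42 (SE 0.26) was -0.12 without control replicate 2. Serpinh1, the collagen chaperone, had 82, 149 and 90 counts against 81, 80 and 86, with a log2 fold change of -0.37 (SE 0.21) that was -0.06 without that library. Serpinf1, the gene of pigment epithelium-derived factor, had 40, 81 and 48 counts against 36, 67 and 71, and overlapped between the groups with a log2 fold change of 0.05 (SE 0.31). A list of 12 fibroblast and stromal genes summed to 103, 155 and 107 CPM in the controls and to 88.2, 99.4 and 96.7 CPM with IL17B. Of the list, 11 genes were tested, 4 were lower at an unadjusted p under 0.05 (2.28% of all tested genes) and 4 had each IL17B library below each control (4.77% of all tested genes). Dcn, the gene of decorin, had 55, 75 and 50 counts against 19, 35 and 26, and Fn1, that of fibronectin, had 738, 1164 and 897 against 663, 788 and 792. Lum, a stromal gene, had at most 4 counts in a library. The part of these genes in the values of Serpine2 and Serpinh1 was not tested.

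**Figure D4:**
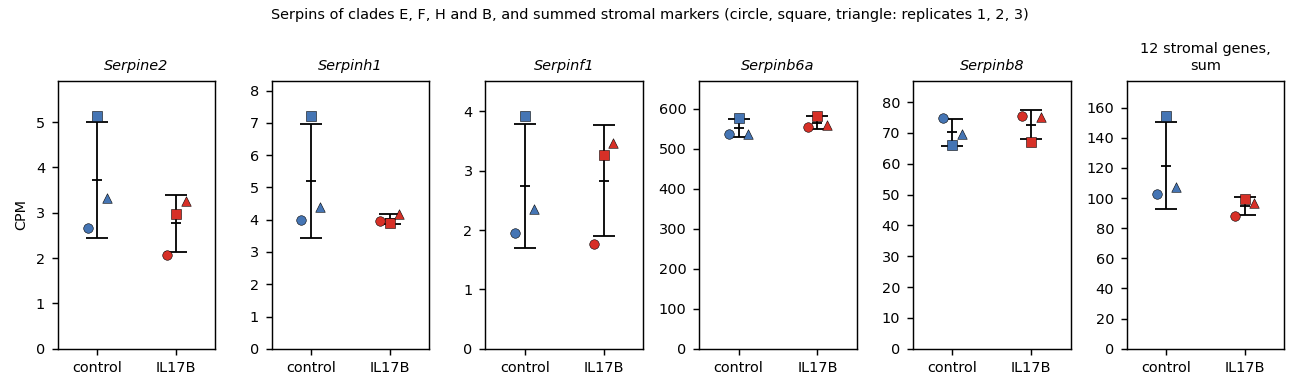
CPM of 5 serpin genes and of the summed 12 stromal genes in each library, with the mean and SD of each group (circle, square and triangle for replicates 1, 2 and 3), on linear axes from 0. Control replicate 2 is the highest point for Serpine2, Serpinh1, Serpinf1 and the stromal sum, while Serpinb6a and Serpinb8 overlap between the groups.

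The other serpins of single-gene clades overlapped between the groups. Serping1, the gene of the C1 inhibitor of complement, had 38, 50 and 36 counts in the controls and 16, 68 and 57 with IL17B. The 3 IL17B libraries surrounded the controls, with 1 below and 2 above, and the log2 fold change was 0.19 (SE 0.41). Serpini1, the gene of neuroserpin, an inhibitor of tissue plasminogen activator, had 20, 18 and 19 counts against 16, 18 and 27, a log2 fold change of 0.10 (SE 0.30).

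Across the superfamily no gene was called. At an adjusted p of at most 0.05, edgeR called 0 of the 27 serpins higher (0% of all 13866 tested genes were called higher) and 0 lower (0% of all tested genes), and DESeq2 and limma-voom also called 0 serpins. By DESeq2, 9 serpins were higher and 0 lower at an unadjusted p under 0.05, and by limma-voom with quality weights 0 were higher and 0 lower. The shares of all tested genes at that p by DESeq2 and limma-voom are not given here. Counts at that p by these tools, here and for the gene lists below, therefore have no background to be read against. The adjusted p of the serpins ran from 0.862 to 0.998 by edgeR. At an unadjusted p under 0.05, 10 of the 27 were higher by edgeR, or 37%, where 2.96% of all tested genes were higher. None of the 27 was lower, where 2.28% of all tested genes were lower. None had each IL17B library below each control, an order shown by 4.77% of all tested genes. Of the 10 higher genes, 9 had fewer than 15 counts over the control libraries and reached the count minimum only through the IL17B libraries, so that their share is no support for a difference. The median log2 fold change was 0.19 over the 27 serpins and 0.00 over all tested genes. Setting the 7 genes at 0 in the controls to their bound against the floor left it at 0.19. These genes lie above the median either way, so it could not move. Without the 10 higher genes, the log2 fold changes of the other 17 ran from -1.37 to 1.17 with a median of -0.04. With IL17B replicates 2 and 3 left out together, a choice made after seeing the data that leaves 1 IL17B library assumed to vary like the controls, 9 of the 10 higher genes fell below the count minimum and were not tested. Serpinc1 and 16 other serpins described were tested, and none was called.

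**Figure D5:**
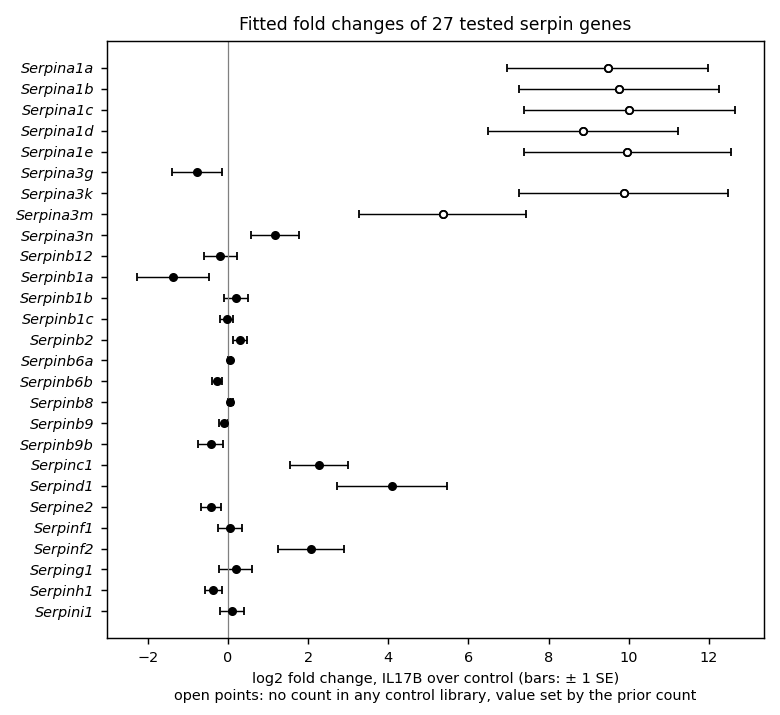
Log2 fold change of IL17B over control for 27 tested serpin genes (points) with 1 SE to each side (bars), fitted by edgeR. Open points mark the 7 genes with no count in any control library, whose value depends on the prior count and is no bound, and most of the filled points lie near 0.

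The summed level by clade used the same counts and is no separate evidence. Clades C, D, G, H and I held 1 gene each. The log2 ratio of the IL17B to the control mean was 5.36 for clade A (4.09 without IL17B replicate 2), 0.03 for clade B, 2.29 for clade C and 4.53 for clade D. It was 0.26 for clade F, whose sum was mostly Serpinf1, 0.19 for clade G, -0.37 for clade H and 0.10 for clade I. These ratios are descriptions with no test.

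The 15 serpins that were not tested had totals of 1 to 9 counts over the 6 libraries and at most 4 counts in a library. They were 9 genes of clade A, 5 of clade B and Serpine3. Serpina6, the gene of corticosteroid-binding globulin, and Serpina10, that of the protein Z-dependent protease inhibitor, had 3 counts each in IL17B replicate 2, and Serpina11 had 4 there. These 3 genes had 0 counts in each control library and in IL17B replicate 1. Serpina12 (vaspin), Serpina1f, Serpina3a, Serpina3c, Serpina3f, Serpina5 (protein C inhibitor), Serpinb5 (maspin), Serpinb6c, Serpinb7, Serpinb9d and Serpinb10 had at most 2 counts in any library.

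Among the proteases that serpins control, Plg, the plasminogen gene, was high in the same 2 libraries as the plasma serpins. Of 38 target proteases, 34 were in the table and 26 were tested. By edgeR none was called, and 4 were higher and 0 lower at an unadjusted p under 0.05 (1 higher and 0 lower by DESeq2, which also called none), where edgeR had 2.96% of all tested genes higher and 2.28% lower. The 4 were Plg (plasminogen), with 0, 0 and 0 counts in the controls and 0, 89 and 40 with IL17B, and the genes of prothrombin (F2), factor XII (F12) and protein C (Proc). Counts per library of F2, F12 and Proc are not given here. Plg reached the count minimum only through the IL17B libraries, so the share of higher genes is no support for a difference. The most abundant target proteases were the lysosomal cathepsins. Ctsb had 330786, 317099 and 307833 counts in the controls and 311418, 328732 and 318202 with IL17B, and Ctss had 107061, 110783 and 101659 against 100730, 103071 and 101820. Ctsl had 28420, 25273 and 27949 counts against 26703, 27360 and 29086, and overlapped like the others. Furin, a target of the Serpinb8 protein, had a log2 fold change of -0.02 (SE 0.04). Plau, the urokinase gene whose product the Serpinb2 protein binds, had 1164, 684 and 809 counts against 702, 745 and 1064, with groups that overlapped. The neutrophil proteases were nearly absent: Elane, Ctsg and Prtn3 had at most 2 counts in a library. Gzmb, the granzyme B gene, had 8, 4 and 9 counts in the controls and 11, 0 and 0 with IL17B.

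Cofactors and clearance receptors of serpins were tested for all 21 listed genes. By edgeR none was called, with 1 higher and 2 lower at an unadjusted p under 0.05 (1 and 1 by DESeq2, which called none), beside the same 2.96% and 2.28% of all tested genes. The higher gene was Vtn (vitronectin, an adhesion protein of plasma), with 0 counts in 4 libraries and 88 and 31 in IL17B replicates 2 and 3. Vtn reached the count minimum only through those IL17B libraries, so its low p is no support for a difference. The lower genes were Hspg2 (perlecan), with 131, 218 and 163 counts against 112, 95 and 114, and Ext1, an enzyme of heparan sulfate synthesis, with a log2 fold change of -0.16 (SE 0.07). Lrp1, the receptor that clears serpin-protease complexes, had a log2 fold change of -0.01 (SE 0.06), and Hspa5, an endoplasmic reticulum chaperone, had 12640, 17226 and 11192 counts against 10925, 11211 and 12144.

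Of 31 listed protease inhibitors that are not serpins, 25 were in the table and 22 were tested. By edgeR none was called, and 6 were higher and 0 lower at an unadjusted p under 0.05 (5 and 1 by DESeq2, which called none), again beside 2.96% higher and 2.28% lower among all tested genes. The 6 were the plasma inhibitors Mug1, Pzp, Ambp, Itih1, Itih2 and Itih3. Mug1 had 0 counts in 4 libraries and 158 and 40 in IL17B replicates 2 and 3. Pzp had 0 counts in the controls and 1, 148 and 42 with IL17B. Mug1, Pzp and Ambp reached the count minimum only through the IL17B libraries, so the share of higher genes is no support for a difference. The most abundant inhibitors of the list had log2 fold changes of -0.01 (SE 0.06) for the cathepsin inhibitor Cst3, -0.06 (SE 0.05) for Cstb, 0.02 (SE 0.05) for Timp2 and 0.04 (SE 0.06) for Cast, the calpain inhibitor.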

How the data were processed

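Total RNA of 3 control and 3 IL17B samples was sequenced as single-end 50-base reads. After filtering, the authors mapped the reads to GRCm38 (HISAT2 2.0.4) and to the reference coding transcripts (Bowtie2 2.2.5), and the deposited values are an estimated count per gene from RSEM 1.2.12 with the TPM and FPKM of the same run. RSEM divides reads that match several genes. FPKM values were not tested, and the authors' comparisons, called with DESeq2 1.4.5, were used only to name the serpins they list.

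Here the deposited estimated counts were rounded, a gene was tested if it totalled at least 15 counts in the 6 libraries, and groups were compared by the edgeR 4.0.16 quasi-likelihood test (R 4.3.3, TMM, no block, Benjamini-Hochberg over all genes tested, adjusted p of at most 0.05). The standard error comes from the quasi-likelihood statistic. The steps were tested on simulated counts. Same-numbered libraries did not deviate together (correlations -0.02, 0.02 and -0.05).

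Alternatives were DESeq2 size factors, library totals, DESeq2 1.42.0, limma-voom 3.58.1 with quality weights, a filterByExpr filter, a filter of 1 count, a limma fit of log2 values of the deposited TPM plus 0.1 or 1, each library left out, a replicate block, an adjusted p of at most 0.1 and paralogs of 1 base name summed. The members, the gene lists and the rules were chosen with earlier results of these data known. Values are given per library for serpins with a mean of at least 5 TPM, the 3 higher and the 3 lower ones with the smallest p, those with at least 15 counts in 1 library whose highest library was at least 5 times the median, and those the study lists as differentially expressed. From each list up to 4 genes with the highest mean and up to 2 with the smallest p were named, and serpins or other genes outside these rules were named after their values were seen. 1 tested serpin is not reported here. Coordinates come from RefSeq (by gene ID) and transcripts from GENCODE M21 (by symbol), matched for all 43 serpins, and promoters from RefSeq, matched for 36.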

Additional observations from a re-analysis of the deposited data

How the results depend on the processing

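No serpin was called in 16 of the 18 alternatives for the serpin calls. The exceptions were the fit without IL17B replicate 1 and the fit with a replicate block. Leaving out each library in turn gave 0 to 7 serpins higher and 0 lower, and 0 to 77 genes higher and 0 to 9 lower over all genes, with the high values coming without IL17B replicate 1. The 7 serpins were Serpina1a to Serpina1e, Serpina3k and Serpinf2 (adjusted p 0.0117 to 0.0442 by edgeR). The library left out had 0 counts of Serpina1a to Serpina1e and Serpina3k and 1 of Serpinf2. These 7 genes reached the count minimum only through IL17B replicates 2 and 3, so the calls are no support for a difference. With the replicate number as a block, 6 serpins were higher (Serpina1a to Serpina1e and Serpina3k, adjusted p 9.57e-05 to 0.00059 by edgeR), and over all genes 74 were higher and 2 lower. The libraries share only a number, so this pairing has no basis in the labels. The 6 serpins also reached the count minimum only through IL17B replicates 2 and 3. Over all genes DESeq2 called 6 higher and limma on log2(TPM + 0.1) called 1 higher, none of them a serpin.

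The log2 fold change changed sign for 8 genes, none of them called. With paralogs summed it was 3.31 for Serpina3g (within Serpina3), -0.016 for Serpinb1b and 0.028 for Serpinb6b. Over the fits that leave out 1 library each it ran from -0.15 to 0.40 for Serpinf1, from -0.17 to 0.60 for Serping1, from -0.15 to 0.25 for Serpini1, from -0.48 to 0.072 for Serpinb12 and from -0.19 to 0.0025 for Serpinb9. Without IL17B replicates 2 and 3 it was -0.64 for Serpinf1, -1.35 for Serping1 and -0.24 for Serpini1. For Serping1 it was -0.046 by limma-voom and -0.026 on log2(TPM + 0.1). The cause of these changes was not tested. The summed level of clade D could not be given without control replicate 2, since no control count was left. With 3 libraries a group, serpins of few counts could not show a small difference at this depth.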

Other observations

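Agt, the gene of angiotensinogen, encodes a plasma protein of the serpin fold whose symbol the rule does not take, and it was named after its values were seen. It had 0, 1 and 4 counts in the controls and 2, 32 and 19 with IL17B, so that IL17B replicates 2 and 3 lay above every control and IL17B replicate 1 did not.

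Marker lists of other cells that make or meet serpins were summed in each library. Of 14 neutrophil genes, 11 were in the table, at 15.4 to 18.0 CPM in the controls and 16.7 to 18.8 CPM with IL17B. Of 10 mast cell and basophil genes, 5 were in the table, at 6.22 to 8.78 CPM and 5.70 to 6.15 CPM. Of 8 cytotoxic lymphocyte genes, 6 were in the table, at 1.80 to 2.06 CPM and 1.37 to 2.99 CPM. The 9 endothelial and platelet genes summed to 138 to 153 CPM and 139 to 146 CPM. The 8 Schwann cell and nerve genes summed to 138 to 142 CPM and 133 to 144 CPM, most of it from Mbp. All 8 were detected in the controls and IL17B replicate 1, and 6 in IL17B replicates 2 and 3. In 4 of the 8, both libraries that held the plasma serpins lay below the other 4 libraries. Apod, a lipocalin of nerve, had 103, 60 and 76 counts in the controls and 81, 2 and 5 with IL17B, and Sox10, the defining factor of Schwann cells, had 46, 22 and 29 against 34, 2 and 0. Ngfr, a neurotrophin receptor, had 57, 30 and 37 counts against 50, 7 and 7, and Foxd3, a factor of neural crest, had 11, 6 and 10 against 8, 0 and 0. The median log2 fold change of the 8 genes was -0.62, and at an unadjusted p under 0.05 edgeR and DESeq2 had 0 lower and limma-voom had 4. The shares of all tested genes with that order, or lower by limma-voom, are not given here. Neither count of 4 can therefore be read as a result about these 8 genes.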
